A study of Homo sapiens with 12 samples.

Results

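The regions described here are stretches of HepG2 transcripts with low recovery by an antibody against N6-methyladenosine (m6A) in control cells. Low is meant relative to the summed counts of all regions that the authors listed. Library sizes and reads outside these regions are not given, so recovery relative to bulk RNA was not tested. A region was taken when it carried a single gene name, had at least 200 input counts in control, and had a control IP count divided by control input count of 0.6 or less. IP is the RNA recovered with the antibody and input is the RNA before recovery. These limits gave 2417 regions in 1661 genes, out of 17812 single-gene regions with at least 200 control input counts (called well-counted below) in 7912 genes, and out of 46178 regions in all. HepG2 cells, a long-established human hepatocellular carcinoma line, had received toosendanin, a triterpenoid of Melia plants, or were labelled control, with 3 IP and 3 input libraries per condition. The labels give no dose, duration or vehicle, and do not say whether the 3 libraries of each kind were grown separately. The deposited m6A counts are sums over the libraries of a condition, so each region has 1 IP and 1 input value per condition without any measure of library-to-library variation. Hepatocyte markers were abundant (7 of 7, mean normalized counts of 5546 to 411979 in the authors' deposited table), and 4 of 4 fibroblast markers were at 0. Among 5 blood and immune markers LYZ was high, at 49191 in the authors' deposited table, with PTPRC and CD3E at 0.

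m6A is placed on mRNA by a nuclear enzyme complex built around METTL3 and METTL14, mostly at adenosines within a short consensus sequence, and most densely in long internal exons and around stop codons. Exon junction complexes keep much of the short-exon coding sequence free of the mark, so many transcripts of housekeeping genes carry little of it. In an antibody pull-down, RNA without the mark is still recovered to some degree as background. A low ratio of IP to input here marks a region that is low relative to the summed counts of all listed regions. It therefore does not measure the share of molecules that carry m6A. The deposited table holds no coordinates, so neither the position of a region within its transcript nor its sequence was analysed here.

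The ratio is read against the totals of the table. Summed over all regions, control IP held 42316089 counts and control input 34131862, a ratio of 1.24, and the toosendanin totals of 29094328 and 24253006 gave a ratio of 1.20. A control ratio of 0.6 thus corresponds to 0.484 relative to the control totals. The values that chose the members are given as a description only. Control ratios of the 2417 regions ran from 0.298 to 0.6 with a median of 0.518, and all well-counted regions had a control median of 1.03. In control the members held 13.5% of the input counts of all well-counted regions and 5.36% of the IP counts. The limit cut through a continuous distribution. Regions of NSMCE4A, ROBO1, SEC14L1 and SLC44A1 lay at the limit, and a region of the long noncoding RNA NORAD at 0.6001 and regions of COPB2, IGFBP1 and KHSRP, each at 0.6003, lay just outside. By the 95% exact Clopper-Pearson interval, which covers counting error only, 1262 members had a control ratio whose upper bound was under 0.6 and 1155 had an interval that included it.

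The toosendanin libraries played no part in the choice, and most of the members were low there too. After toosendanin the median ratio was 0.568, with the middle of the distribution between 0.499 and 0.639 (quartiles), against 1.06 for all well-counted regions. The ratio was at or under 0.6 in 1502 of 2417 members (62.1%). The same held for 10.6% of all well-counted regions, and for 378 of the 15395 well-counted regions that lay above the limit in control (2.46%). Only 3 of 2417 members had as many IP as input counts after toosendanin, whereas 9720 of the 15395 other regions did. Counting error left the side of the limit unsettled for many: 731 members had an interval wholly under 0.6, 284 wholly above it, and 1402 an interval that spanned it. Members again held a smaller share of IP counts (6.63%) than of input counts (14.4%) of the well-counted regions.

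**Figure D1:**
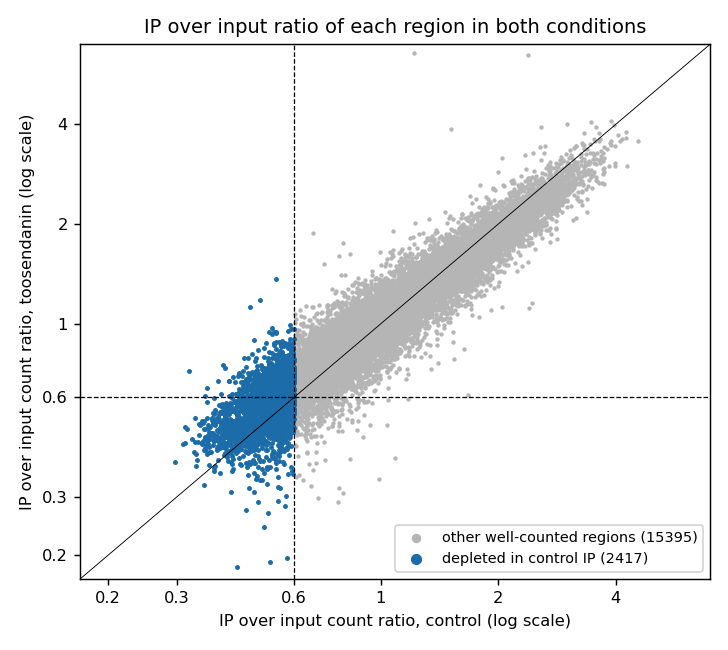
IP over input count ratio of each well-counted region in control (horizontal, log scale) and after toosendanin (vertical, log scale), with members in blue, other regions in grey, the limit of 0.6 dashed and equal ratios as a solid line. Blue points lie left of the vertical dashed line by construction, and 1502 of 2417 also lie at or below the horizontal one.

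**Figure D2:**
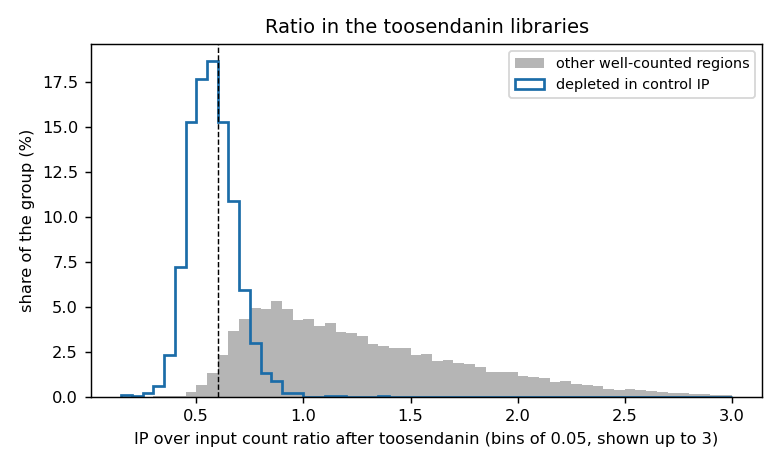
Share of regions (vertical, %) by IP over input count ratio after toosendanin (horizontal, bins of 0.05), for the 2417 members (blue line) and the 15395 other well-counted regions (grey bars). The medians are 0.568 and 1.16, and the dashed line marks 0.6.

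The ratio of the members was higher after toosendanin than in control in 1860 regions and lower in 557. Since the control value chose the regions, part of any rise from it is built into the choice, and this direction was given no test. Both ratios are of raw counts, not scaled for library size. On the authors' deposited log2 scale the median change of the members was 0.10, and some small rises were near 0 or negative. SERPINA1, at 0.430 and 0.456, stood at 0.003 there, and UQCRC1, at 0.524 and 0.534, at -0.06. When regions were instead chosen by the same limits on the toosendanin libraries, a choice made after the data were seen, 1681 regions were found. Of these 1341 were also members, which is 55.5% of the members and 79.8% of the toosendanin-chosen regions. In the toosendanin-chosen regions the median ratio was 0.526 after toosendanin and 0.512 in control, and the ratio was lower in control in 882 of 1681. In the authors' deposited table the toosendanin-chosen regions had a median m6A log2 fold change of -0.06, with 109 called higher and 158 lower, the opposite balance to the members. The balance of the deposited calls thus depended on which condition chose the regions.

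Members further below the limit in control have further to go to pass it, so the following counts by control ratio are a description. Of 150 regions at 0.4 or less in control, 143 (95.3%) were at or under 0.6 after toosendanin, with a median that went from 0.377 to 0.471. Of 829 regions over 0.4 to 0.5, 663 (79.98%) stayed, with medians of 0.464 and 0.527, and of 1438 regions over 0.5 to 0.6, 696 (48.4%) stayed, with medians of 0.552 and 0.604. Medians moved up in the low classes and down in the highest ones. Outside the choice, regions over 0.6 to 0.7 in control had medians of 0.649 and 0.699, while those over 2 had 2.35 in control and 2.19 after toosendanin. Depth moved with the share that stayed. It was 51.7% of 776 members with 200 to under 400 control input counts, 62.9% of 896 with 400 to under 1000, and 72.1% of 745 with 1000 or more. The control medians of these classes were 0.534, 0.516 and 0.501, so depth was not separated from distance to the limit.

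The members with the lowest control ratios were also low after toosendanin, with 1 exception. CYBA, the p22 subunit of NADPH oxidase complexes, had 966 IP and 3244 input counts in control, a ratio of 0.298, and 925 and 2411 after toosendanin, a ratio of 0.384. MGAT4B, a Golgi enzyme that branches N-glycans, had 733 and 2346 in control (0.312) and 1210 and 2798 after toosendanin (0.432). ARID3A, a DNA-binding factor, went from 714 and 2271 (0.314) to 660 and 1510 (0.437), and the ubiquitin ligase subunit RBCK1 from 414 and 1312 (0.316) to 413 and 845 (0.489). Each of these 4 regions was under 0.5 in both conditions and higher after toosendanin than in control. FTL, the light chain of the iron store ferritin, had many more counts, with 9779 IP and 29079 input counts in control (0.336) and 16483 and 40611 after toosendanin (0.406). FTCD, a folate enzyme of histidine breakdown, VCP, an ATPase that extracts proteins for degradation, DNAJA1, a co-chaperone of HSP70, the zinc and iron importer SLC39A14 and DHRS2, a short-chain reductase, lay between 0.319 and 0.337 in control and between 0.373 and 0.519 after toosendanin. A region labelled PKD1P1 left the range, from 131 and 406 counts (0.323) to 176 and 245 (0.718), but this label is a near-copy of PKD1 and is uncertain, since how reads shared between copies were assigned is not stated.

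Sorted by function, low-ratio regions were unevenly spread. Shares are of the well-counted regions of each gene list. They are to be read against 13.6% at or under 0.6 in control, which is the rule itself, and 10.6% after toosendanin. The toosendanin counts played no part in the rule, but 1502 of the 1880 low regions after toosendanin are members. The shares after toosendanin are thus not independent of the choice. No test between lists was made. Counts of members that stayed at or under 0.6, given by list below, stand beside 1502 of 2417 members (62.1%). The share that stayed varied with the control ratio, so the lists were not separated from distance to the limit. After toosendanin the highest shares were in cholesterol and fatty acid synthesis (43 of 111 regions, 38.7%), glycolysis (13 of 38, 34.2%), cytosolic ribosomal proteins (36 of 111, 32.4%), secreted hepatocyte proteins (37 of 134, 27.6%) and respiratory chain and ATP synthase (25 of 102, 24.5%). Shares under that of all regions were found for kinesins and mitosis (5 of 140, 3.57%) and zinc finger genes (13 of 291, 4.47%). Chaperones (6 of 118, 5.08%) and long noncoding RNA (13 of 203, 6.40%) were also under it. Splicing and RNA binding genes (29 of 265, 10.9%) and DNA replication (3 of 30, 10%) were near the share of all regions. So were m6A writers, erasers and readers (6 of 64, 9.38%) and aminoacyl-tRNA synthetases (6 of 71, 8.45%). Cytoskeleton (26 of 127, 20.5%), histones (4 of 20, 20%), translation factors (25 of 130, 19.2%), proteasome (18 of 102, 17.6%), translocon, coat and Rab proteins (28 of 161, 17.4%) and mitochondrial ribosomal proteins (17 of 112, 15.2%) lay in between.

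**Figure D3:**
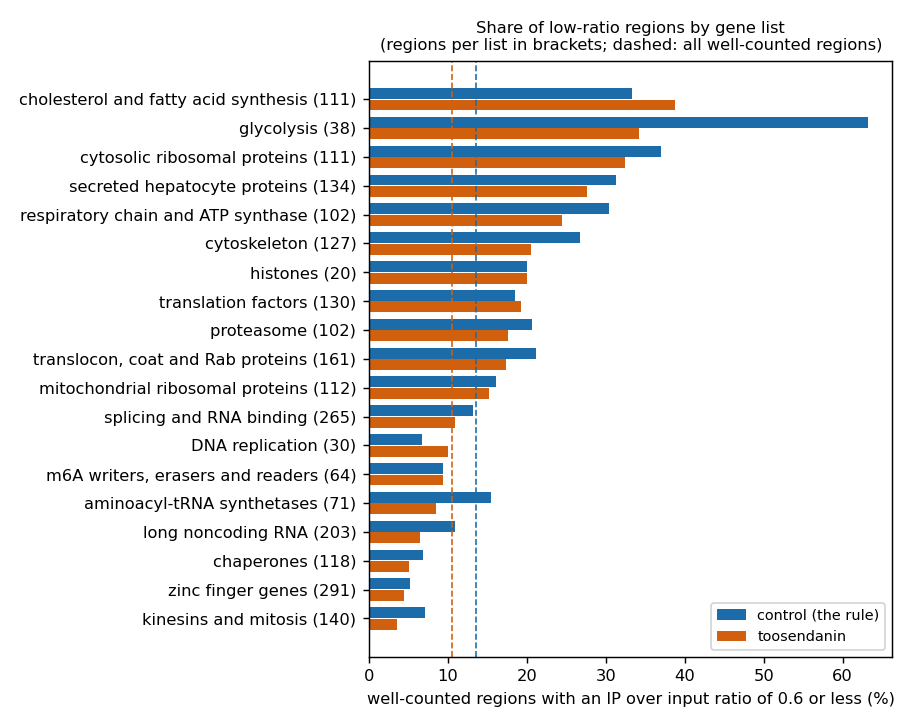
Share of well-counted regions with an IP over input ratio of 0.6 or less (horizontal, %) for each gene list, in control (blue, the measure used to choose members) and after toosendanin (orange), with the number of regions in brackets and dashed lines for all well-counted regions. Glycolysis has the highest control share, 63.2%, and cholesterol and fatty acid synthesis the highest share after toosendanin, 38.7%.

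All 14 glycolysis genes with a well-counted region had at least 1 member, against 21% of all such genes, and 24 of their 38 regions were members. Glycolysis splits glucose into pyruvate in the cytosol. After toosendanin 12 of the 24 were still at or under 0.6. GAPDH, the dehydrogenase step, had 3 well-counted regions, all members, with 6600 and 17561, 3990 and 9308, and 345 and 725 counts in control. They gave ratios of 0.376, 0.429 and 0.476 in control and 0.371, 0.448 and 0.498 after toosendanin. ENO1, the enolase step, had 22512 and 38835 counts in control (0.580) and 14976 and 21703 after toosendanin (0.690), and LDHA, which reduces pyruvate to lactate, went from 5752 and 10531 (0.546) to 3293 and 4924 (0.669). GAPDH thus stayed where it was and ENO1 and LDHA moved above 0.6. At a DESeq2 adjusted p under 0.05 in the authors' deposited table, 6 of the 14 genes fell and 2 rose, where 15.7% of all tested genes fell and 15.7% rose, either way 31.4% in all. LDHA stood at -0.55 ± 0.07 and ENO1 at -0.30 ± 0.08 on the log2 scale in the authors' deposited table, where ± is the authors' standard error here and below, and HKDC1, a hexokinase family member, at 1.55 ± 0.07.

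Most members of lipid synthesis genes stayed at or under 0.6. Of 37 member regions in 15 genes, 34 did so after toosendanin, beside 62.1% of all members. Their median was 0.471 in control, where that of all members was 0.518, and 0.512 after toosendanin. FASN, the fatty acid synthase, had 5 well-counted regions and all were members. They lay between 0.359 and 0.515 in control, and after toosendanin 4 lay between 0.442 and 0.584 while the fifth fell from 391 and 759 counts (0.515) to 184 and 685 (0.269). SCD, the stearoyl-CoA desaturase, went from 5036 and 9349 counts (0.539) to 5745 and 8949 (0.642). Of the 15 genes, 9 were higher and 0 lower in the authors' deposited expression table, as were 17 and 3 of all 34 genes of the list, with SCD at 0.44 ± 0.06 and FASN at 0.38 ± 0.06, while FDFT1, which makes squalene, stood at 0.01 ± 0.07.

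Cytosolic ribosomal proteins gave 41 members in 34 of 73 genes, and 34 of the 41 were at or under 0.6 after toosendanin. RPLP2, an acidic protein of the ribosomal stalk, had 17872 and 50022 counts in control (0.357) and 17470 and 42264 after toosendanin (0.413). RPL3, a large-subunit protein, had 33693 and 65352 in control (0.516) and 27053 and 50198 after toosendanin (0.539). RPL31 moved above the limit, from 24028 and 41970 (0.573) to 25901 and 37026 (0.6995). Of the 34 genes, 26 were higher and 0 lower in the authors' deposited expression table, with a median log2 fold change of 0.29. Among all 73 well-counted ribosomal protein genes, 54 were higher and 2 lower in the authors' deposited expression table, so the rise was shared by the ribosomal protein genes without a member. Ribosomal protein mRNAs are known for a start made of a cytosine and a run of pyrimidines (the TOP motif), through which growth signals control their translation. As examples, the starts of 6 of the genes that have a RefSeq entry are shown. Each has 20 bases before and 20 from the annotated start (RefSeq, GRCh38.p14), 5′ to 3′, with the first 5 transcribed bases in capitals. Any relation of these starts to the expression change was not tested. RPLP2 is at chr11:809947-809986 (plus strand), RPS3 at chr11:75399498-75399537 (plus), RPS16 at chr19:39435930-39435969 (minus), RPL28 at chr19:55385912-55385951 (plus), RPL13 at chr16:89560637-89560676 (plus) and RPL3 at chr22:39319604-39319643 (minus).
RPLP2: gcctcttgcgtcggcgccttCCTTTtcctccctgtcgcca
RPS3: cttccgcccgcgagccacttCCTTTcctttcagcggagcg
RPS16: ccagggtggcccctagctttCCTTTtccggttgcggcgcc
RPL28: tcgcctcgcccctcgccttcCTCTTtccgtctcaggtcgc
RPL13: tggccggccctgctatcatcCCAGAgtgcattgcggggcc
RPL3: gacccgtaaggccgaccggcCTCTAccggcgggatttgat

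RPLP2, RPS3, RPS16 and RPL28 begin with C followed by at least 4 bases that are each C or T, and the annotated starts of RPL13 and RPL3 do not. On the strand of the gene, this start was found in 18 of 27 matched ribosomal protein genes with a member (66.7%) and in 21 of 30 matched ones without (70.0%). It was found in 130 of 1340 matched member genes of all kinds (9.70%), in 375 of 5025 other well-counted genes (7.46%) and in 1404 of 27305 genes of the promoter table (5.14%). Without ribosomal protein genes, the member share was 112 of 1313 (8.53%). The share of other well-counted genes without ribosomal protein genes was not computed. A match describes the annotated start and not the start used in these cells. The 300-base promoter windows of member genes had a median GC content of 66.7%, against 64.7% in the other well-counted genes.

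Plasma proteins were among the deepest members, as were ribosomal protein labels. SERPINA1, the alpha-1 antitrypsin that hepatocytes secrete, had 29873 and 69440 counts in control (0.430) and 22425 and 49152 after toosendanin (0.456). AMBP, the precursor of alpha-1-microglobulin and bikunin, had 22670 and 43217 in control (0.525) and 16574 and 28181 after toosendanin (0.588), and the deepest member of complement component C3 had 13821 and 33112 (0.417) and 11164 and 24157 (0.462). All of these stayed under 0.6. Of 42 members in 21 secreted hepatocyte genes, 33 did so, between 0.394 and 0.670 overall. Expression of the 21 genes went both ways, with 8 higher and 7 lower in the authors' deposited table (17 and 17 of all 48 genes of the list). A2M, a plasma protease inhibitor outside that list, had 6 members among 8 well-counted regions, between 0.348 and 0.502 in control and between 0.436 and 0.563 after toosendanin. F2, prothrombin, had 4 well-counted regions and all were members, between 0.484 and 0.558 in control and between 0.417 and 0.452 after toosendanin.

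Respiratory chain and ATP synthase members numbered 31 in 21 genes, of which 23 stayed at or under 0.6. The deepest member of COX4I1, a subunit of cytochrome oxidase, had 6070 and 12634 counts in control (0.480) and 6383 and 11775 after toosendanin (0.542). UQCRC1, a core subunit of complex III, had 3750 and 7150 in control (0.524) and 2766 and 5183 after toosendanin (0.534). Of the 21 genes, 7 were higher and 0 lower in the authors' deposited expression table, as were 21 and 0 of all 60 genes of the list. Among translation factors, EEF2, which moves the ribosome along mRNA, had a member at 13719 and 32358 counts in control (0.424) and 14123 and 28193 after toosendanin (0.501), and another at 9341 and 22431 (0.416) and 7450 and 19687 (0.378). Members of 1 gene thus went in opposite directions. Of 21 proteasome members 12 stayed at or under 0.6, beside 62.1% of all members. PSMA7, a subunit of the catalytic core, was among those that stayed, at 0.400 in control and 0.408 after toosendanin.

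ACTG1, cytoplasmic gamma actin, had members at 14043 and 35273 counts (0.398) and at 16236 and 35848 (0.453) in control. After toosendanin these had 8301 and 19618 (0.423) and 10297 and 19995 (0.515). FLNA, a crosslinker of actin filaments, had 7 members, and 4 of 7 were at or under 0.6 after toosendanin. Of 15 cytoskeletal genes with a member, 11 were lower and 0 higher in the authors' deposited expression table (16 and 9 of all 46 genes of the list), with ACTG1 at -0.34 ± 0.07 and FLNA at -0.85 ± 0.07, and 24 of their 34 members stayed at or under 0.6. Of 24 splicing and RNA binding genes with a member, 15 were lower and 0 higher in the authors' deposited expression table (68 and 3 of all 115 genes of the list), with the U5 helicase SNRNP200 at -0.29 ± 0.04. ACTG1 and ACTB share long near-identical stretches, so how reads were divided between them is uncertain.

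Several genes had many members. IGF2R, the receptor that carries mannose-6-phosphate-tagged enzymes to lysosomes, had 12 members among 13 well-counted regions, between 0.408 and 0.599 in control and between 0.489 and 0.706 after toosendanin, with 9 at or under 0.6. Its remaining region had 18501 IP and 10676 input counts in control (1.73) and 18394 and 10816 after toosendanin (1.70). LRP1, a scavenging receptor of hepatocytes, had 10 members among 12 regions, and 9 were at or under 0.6 after toosendanin, from 0.416 to 0.676. FN1, fibronectin, had 8 of 12 and PTPRF, a receptor phosphatase, 8 of 10, and 7 of 8 stayed under the limit in each. The deepest FN1 member had 25364 and 67530 counts in control (0.376) and 15411 and 31130 after toosendanin (0.495), while FN1 expression fell, at -0.63 ± 0.04 in the authors' deposited table. Of 1661 genes, 1181 had 1 member, 319 had 2 and 161 had 3 or more.

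Many genes had both low and high regions under the same symbol. In 1243 genes there were both members and other well-counted regions. With counts summed within each gene, the members had the lower ratio after toosendanin in 1208 of these genes and did not in 35, and the median of the member ratio divided by the ratio of the other regions was 0.548. In 365 member genes another region had a ratio over 1.5 after toosendanin. In the remaining 418 genes every well-counted region was a member, but 291 of these had only 1 such region. The 34 genes with 3 or more regions, all members, included the calponin CNN2, the COP9 signalosome subunit GPS1, FASN and the ATPase RUVBL2, each with 5, and the pentose phosphate enzyme TKT, with 4. RUVBL2 lay between 0.414 and 0.514 in control and between 0.382 and 0.497 after toosendanin.

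**Figure D4:**
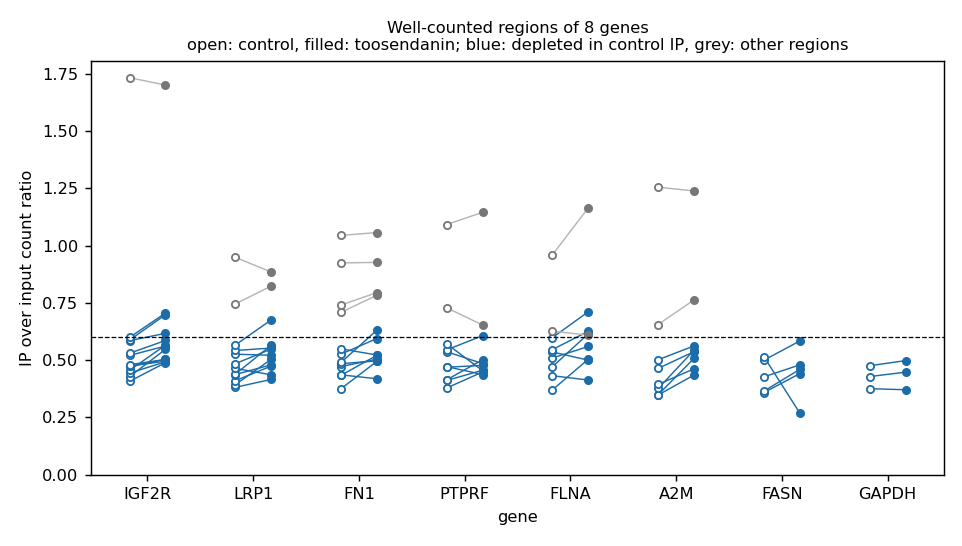
IP over input count ratio (vertical) of every well-counted region of 8 genes (horizontal), with control as open and toosendanin as filled circles joined per region, members in blue, other regions in grey and the limit of 0.6 dashed. IGF2R has 12 members and 1 other region at 1.73 and 1.70, and every region of FASN and GAPDH is a member.

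Of 203 well-counted regions of long noncoding RNA, 22 were members (10.8%, beside 13.6% of all regions, by the rule itself), in 20 of 154 genes. RN7SL1 and RN7SL2, the RNAs of the signal recognition particle, were named after their values were seen. RN7SL2 had 3190 and 9449 counts in control (0.338) and 3810 and 9841 after toosendanin (0.387), and RN7SL1 had 1058 and 2562 (0.413) and 1131 and 2785 (0.406). Both are near-identical, so their reads may be divided arbitrarily. SNHG5, a host of small nucleolar RNAs, had 1624 and 3269 in control (0.497) and 1644 and 3171 after toosendanin (0.518). Labels of antisense genes are uncertain, since it is not stated whether counting used the strand. CEBPB-AS1 had 3345 control input counts in its region but a mean normalized count of 36.1 in the authors' deposited expression table. LINC02067 had 14065 and 28524 counts in its region in control (0.493), against a mean normalized count of 4615 in the authors' deposited expression table. The pseudogene labels RPL13AP5 and RPL13AP20, at 0.569 and 0.528 in control and 0.694 and 0.665 after toosendanin, are uncertain in the same way.

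Of the 24 m6A enzyme and reader genes with a well-counted region, 4 had members (16.7%, beside 21% of all such genes). ALKBH5, a demethylase that removes m6A, had 2 members, one with 408 and 699 counts in control (0.584) and 179 and 444 after toosendanin (0.403), and the other at 0.497 and 0.622. ELAVL1, an RNA-stabilising protein also described as an m6A reader, had members at 0.474 and 0.484 in control and 0.530 and 0.562 after toosendanin. Of the 4 genes, 1 was lower and 0 higher in the authors' deposited expression table (8 and 2 of all 24 genes of the list), with ALKBH5 at 0.10 ± 0.09.

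The authors' deposited test of the m6A change used the control counts that chose the members, so its calls are given without further reading. How that test was made is not stated. Of 2368 members with a deposited FDR, 254 were called higher (10.7%) and 70 lower (2.96%) at an FDR under 0.05, against 2.71% and 6.24% of all regions with an FDR (8.95% in either direction) in the authors' deposited table. Among the 15134 other well-counted regions with an FDR, 373 were higher and 1283 lower in the authors' deposited table. The median log2 fold change was 0.10 in members and -0.05 in the others. Among members with an FDR under 0.05, the largest rise in the authors' deposited table was 1.33 (FDR = 6.59e-10). It belonged to a region labelled CBWD1, which went from 215 and 398 counts (0.540) to 221 and 162 (1.36). CBWD1 has close copies elsewhere in the genome. Further rises in the authors' deposited table included DUS2, a tRNA dihydrouridine synthase, at 0.86, NGRN at 0.85 and VCL, vinculin, at 0.79. DUS2 went from 128 and 271 counts (0.472) to 147 and 164 (0.896).

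Members that dropped further were fewer and some dropped far. RNF126, a ubiquitin ligase, went from 437 and 760 counts in control (0.575) to 77 and 391 after toosendanin (0.197), a log2 change of -1.64 in the authors' deposited table. UBE2J2, a ubiquitin-conjugating enzyme of the endoplasmic reticulum, went from 400 and 933 (0.429) to 73 and 396 (0.184), a change of -1.29 in the authors' deposited table. MZT2A and MZT2B, near-identical partners of the gamma-tubulin ring complex, went from 0.501 and 0.453 to 0.244 and 0.275. EIF5A, a translation factor that carries hypusine, went from 1580 and 2755 (0.574) to 560 and 1847 (0.303), and the histone variant H2AZ2 from 749 and 1376 (0.544) to 203 and 630 (0.322). HAGH, a glyoxalase, had a member that went from 114 and 201 (0.567) to 52 and 185 (0.281).

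The genes of the members had higher mean counts than other genes, and at like mean counts the share called changed was near that of other genes in 3 of 4 classes and lower in the highest. In the authors' deposited DESeq2 table, 1656 of the 1661 genes had an adjusted p, 436 were higher (26.3%) and 392 lower (23.7%). Among all 16552 genes with an adjusted p, 15.7% were higher and 15.7% lower in the authors' deposited table, and among the 6214 tested genes with well-counted regions but no member, 1112 were higher (17.9%) and 1526 lower (24.6%). Mean normalized counts differed too, with a median of 2931 for member genes and 1254 for the others in the authors' deposited table. Within classes of that mean in the authors' deposited table, the share called in either direction was 33.2% for member genes against 32.8% for the others under 1000, 44.0% against 44.0% from 1000 to 3000, 57.4% against 57.0% from 3000 to 10000, and 63.1% against 69.0% above. In the same classes, the share that rose was 15.9% against 11.8% under 1000, 24.8% against 21.2% from 1000 to 3000, 28.7% against 22.6% from 3000 to 10000, and 34.2% against 28.6% above. The share that fell was lower for member genes in each class, at 17.3% against 21.0%, 19.2% against 22.8%, 28.7% against 34.4%, and 28.8% against 40.4%. The control input libraries may enter both the choice of regions and the expression table, and these shares were not tested.

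**Figure D5:**
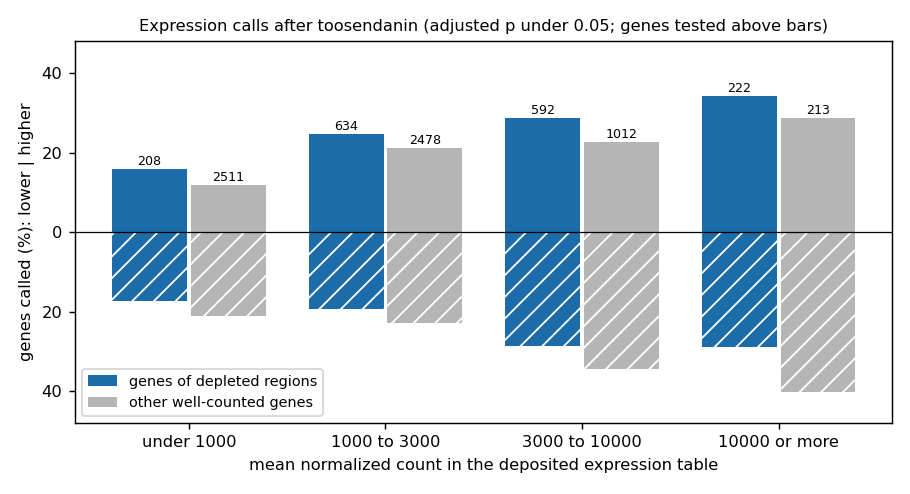
Share of genes called higher (plain bars, upward, %) or lower (hatched bars, downward, %) in the authors' deposited expression table by class of mean normalized count (horizontal), for genes of depleted regions (blue) and other well-counted genes (grey), with the number of genes tested above the bars. In each of the 4 classes the blue bars reach higher above the line and less far below it.

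Of the 1656 tested member genes, 28 were higher and 22 lower by at least 2-fold in the authors' deposited table, beside 75 and 193 of the 6214 other well-counted genes and 635 and 572 of all 16552 genes. IFI30, a lysosomal thiol reductase, stood at 2.06 ± 0.09 on the log2 scale of the authors' deposited table, ASS1, an enzyme of the urea cycle, at 1.82 ± 0.06 and CTSB, a protease of lysosomes, at 1.57 ± 0.06. The deepest member of each also had more input, from 491 to 1404 counts for IFI30, from 947 to 2484 for ASS1 and from 3590 to 7640 for CTSB, with ratios of 0.564, 0.595 and 0.340 in control and 0.486, 0.720 and 0.441 after toosendanin. PEG10, an imprinted retrotransposon-derived gene, stood at -1.89 ± 0.08 and SLC2A1, a glucose transporter, at -1.88 ± 0.09 in the authors' deposited table, as did the replicative helicase subunit MCM7 at -1.45 ± 0.07 and the condensin subunit NCAPD2 at -1.45 ± 0.06. SLC2A1 input fell from 1194 to 274 counts and its ratio was 0.544 in control and 0.529 after toosendanin. The deepest of 3 PEG10 members went from 0.485 to 0.638 and NCAPD2 from 0.578 to 0.844. In the authors' deposited table, the m6A rises of these CTSB, PEG10 and NCAPD2 members were called at an FDR under 0.05. The rise in ASS1 (FDR = 0.126) and the falls in IFI30 (FDR = 0.157) and SLC2A1 (FDR = 0.827) were not.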

How the data were processed

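Per the file headers, the authors deposited whole-number read counts for each region, added up over a condition's libraries, beside a log2 fold change of m6A, a p-value and an FDR. Their expression table has DESeq2-style columns per the file headers: a mean normalized count over all libraries tested (a signal deposited by the authors), a log2 fold change, its standard error, the Wald score that the authors deposited, and p-values before and after adjustment. The submitters' processing notes list HISAT2, StringTie and DESeq and give no versions. Build, region caller, counting settings and the libraries used for expression are not stated. Per the labels' protocols, the kit was stranded and carried molecular identifiers; whether these were used in counting is not stated.

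Ratios of summed counts, 95% exact Clopper-Pearson intervals (from the IP share of IP plus input), medians and counts were computed here (Python 3.11.15; pandas 2.3.3; numpy 2.4.6; scipy 1.17.1). The code was tested on simulated data. No model was fitted. Calls use the deposited FDR or adjusted p under 0.05. Members and the 19 gene lists were chosen with earlier results of these data known. The naming rule took the 12 lowest control ratios, the 8 deepest members, the 8 at each extreme of toosendanin ratio, m6A change and expression change, up to 3 members per list by input, genes with 3 or more members, and the 4 regions on either side of the limit; some are not reported here. Promoters were matched by symbol to RefSeq. Alternatives covered the limits, scale, regions per gene and call thresholds.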

Additional observations from a re-analysis of the deposited data

How the results depend on the processing

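The limits set how many regions are counted. With a control ratio of 0.5 or less (979 regions), 419 regions were at or under that limit after toosendanin, with a median of 0.513, 163 m6A calls and 381 genes changed in expression. With 0.7 or less (4033 regions) these were 2947, 0.619, 474 and 1256. The median after toosendanin was 0.555 with at least 400 control input counts, 0.583 with at least 100, 0.587 with the toosendanin ratios rescaled to the control ratio of totals, and 0.576 with 1 region per gene, where 978 of 1661 regions stayed under the limit. It was 0.526 for regions chosen on the toosendanin libraries, an alternative chosen after seeing the data. So rescaled, 1328 regions stayed. At an FDR under 0.01, 196 members were called for m6A in place of 324, and 50 genes changed in expression by at least 2-fold, of 828 in all. With regions of more than 1 gene kept, 1538 of 2470 stayed. No paired analysis was possible because the deposited counts are sums over libraries, and leaving out a library was not possible for the same reason. Depth limits single regions: 1402 of 2417 intervals after toosendanin include 0.6, and spread between libraries is not in them.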
